A study of Homo sapiens with 6 samples.

Results

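Proteoglycans are described here through 9 genes that encode their core proteins: the syndecans SDC1, SDC2 and SDC4, the glypicans GPC1, GPC4 and GPC6, and the matrix proteoglycans BGN (biglycan), VCAN (versican) and HSPG2 (perlecan). The genes were taken by symbol, and all 9 were found among the 23228 genes in each count file. RNA was measured in MDA-MB-231, an established human cell line from a triple-negative breast cancer with mesenchymal features. There were 3 libraries labelled SCUBE3 knockdown, from cells given lentivirus with a short hairpin RNA (shRNA) against SCUBE3, and 3 scramble libraries, from cells given lentivirus with a scrambled shRNA. Both groups had lentivirus followed by puromycin selection in serum-containing medium, and the labels give neither the hairpin sequences nor how many were used. Separate cultures are not named for the replicates in the labels, and the p-values therefore cover library-to-library spread alone, possibly technical in origin.

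A proteoglycan is a protein that carries long sulfated sugar chains. Syndecans cross the plasma membrane and glypicans hang from it by a lipid anchor, and both carry mainly heparan sulfate, which binds growth factors, chemokines and matrix proteins and can present them to their receptors. Perlecan carries heparan sulfate in basement membranes, whereas versican and biglycan carry chondroitin or dermatan sulfate in looser matrix. In breast cancer, syndecans are known for roles in adhesion and growth factor signalling.

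The targeted transcript was examined first. SCUBE3, a secreted and cell-surface protein, had 99, 107 and 101 reads in the libraries labelled knockdown, against 96, 91 and 80 reads in scramble libraries. Its log2 fold change was 0.03 (95% interval -0.26 to 0.31, edgeR quasi-likelihood adjusted p = 0.871), so SCUBE3 RNA was not detectably lower in the libraries that carry the knockdown label, and every direction below is that of the labels. Without scramble replicate 3 the value was -0.050. Reads in genes numbered 24249429 to 25520901 in libraries labelled knockdown and 21348509 to 24234762 in scramble libraries. Reads aligned to several places, which are not counted in genes, made up 29.3% to 29.6% of the reads listed in the count files of libraries labelled knockdown and 34.0% to 34.2% in scramble libraries. Of 13606 genes tested across the genome, 11681 (85.9%) passed an adjusted p of 0.05, 43.4% as higher and 42.5% as lower in libraries labelled knockdown, and the libraries of both groups did not overlap for 85.8%. A call alone is therefore the usual outcome for a gene in these data, and sizes are given beside each call.

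Of the 9 core protein genes, SDC4, HSPG2, SDC2 and GPC1 were higher in libraries labelled knockdown, and GPC4, VCAN, GPC6 and SDC1 were lower. BGN was read at most once and was the only member left out by the low-count filter, and GPC4 passed that filter through its scramble libraries alone. The 4 higher and 4 lower calls compare with 43.4% and 42.5% of all genes tested, so the number of calls is near the background. A called change of at least 1 on the log2 scale was seen for 7 of the 8 tested members, while 31.2% of all genes tested had one. The same 7 genes passed a test against a 1.5-fold change, which 45.9% of all genes tested passed. Members were chosen with earlier results of these data known, so these shares are no test of the family. The groups did not overlap for the same 7 genes, as for 85.8% of all genes tested, and SDC1 was the tested member outside them. Summed over the 9 genes, libraries labelled knockdown had 888 to 903 CPM and scramble libraries 366 to 383 CPM.

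**Figure D1:**
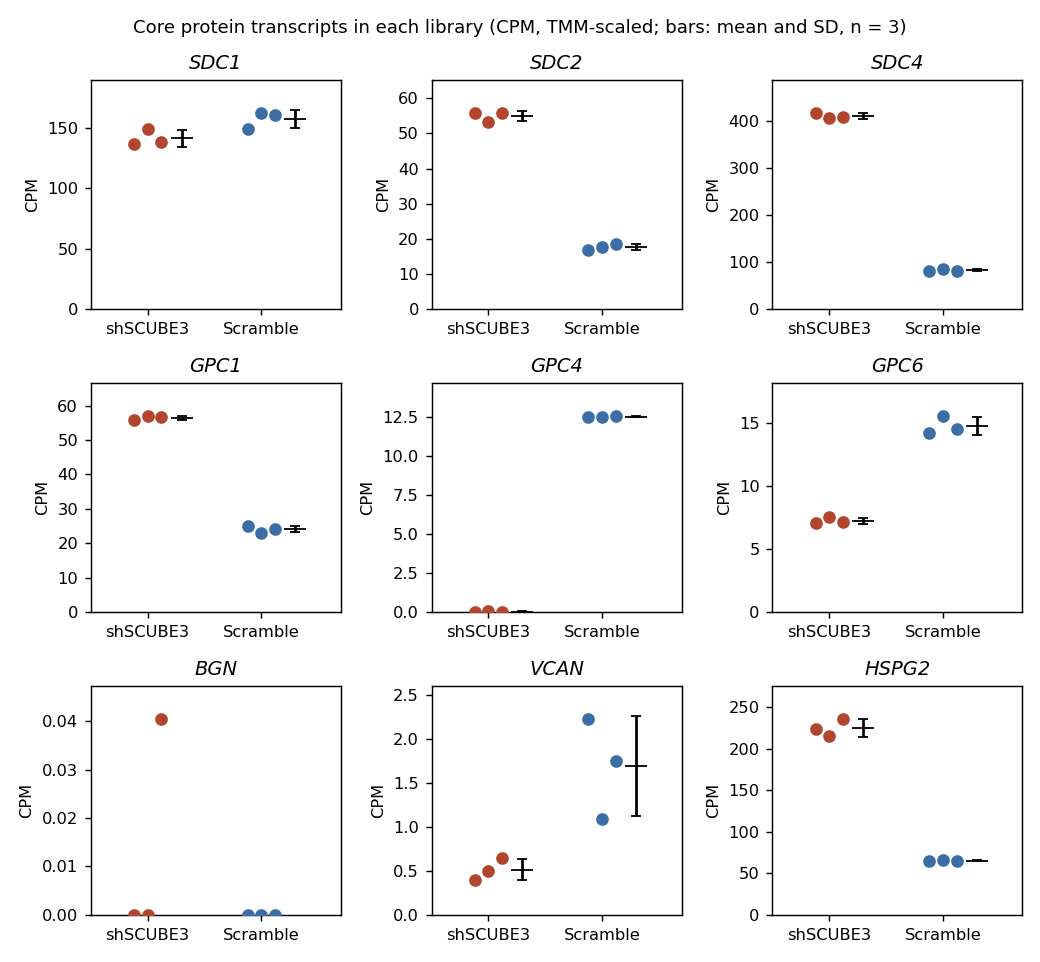
Each panel plots 1 gene, with CPM (reads in a gene per 1e6 reads in genes, after TMM scaling) on a linear axis from 0; points are the 3 libraries labelled knockdown (shSCUBE3, left) and the 3 scramble libraries (right), and black bars are the mean and SD, drawn for all genes but BGN. The groups lie apart for 7 genes, touch for SDC1 at 149 CPM, and BGN shows its 1 read.

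Among the syndecans, SDC4 had the largest change. SDC4 encodes the widely expressed syndecan of focal adhesions, which works with integrins and protein kinase C alpha. It had 418, 407 and 409 CPM (the TMM-scaled unit plotted above) in libraries labelled knockdown, against 82.0, 84.9 and 81.4 CPM in scramble libraries. The groups lay far apart and each varied little. The log2 fold change was 2.31 ± 0.03 (SE), or 4.97-fold (edgeR quasi-likelihood adjusted p = 1.21e-38), and 90.6% of all genes tested had a smaller change in size. In bulk RNA of this kind, a change in RNA per cell and a change in the share of cells that make it cannot be told apart.

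SDC2 encodes a syndecan best known in mesenchymal and endothelial cells. Its level was 55.8, 53.2 and 55.7 CPM in libraries labelled knockdown and 16.8, 17.6 and 18.5 CPM in scramble libraries. The groups did not overlap, and the log2 fold change was 1.64 ± 0.06 (SE), or 3.11-fold (edgeR adjusted p = 9.43e-26). SDC1 encodes the main epithelial syndecan, also known as the plasma cell marker CD138. It had 136, 149 and 138 CPM in libraries labelled knockdown and 149, 162 and 161 CPM in scramble libraries. The highest library labelled knockdown and the lowest scramble library met at 149 CPM, so the groups overlapped. The log2 fold change of -0.15 ± 0.04 (SE) passed the test (edgeR adjusted p = 4.43e-04), but for the CPM values the two-sided exact permutation p was 0.2, and with 3 libraries in each group it cannot go below 0.1. SDC1 did not pass the test against a 1.5-fold change, and only 13.5% of all genes tested changed less. SDC3, the remaining syndecan gene and not a member, had a log2 fold change of 0.49 ± 0.04, at 139 ± 2.30 CPM in libraries labelled knockdown and 98.6 ± 0.521 CPM in scramble libraries (SD, n = 3 each).

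The glypicans differed in direction. GPC1, the glypican most often described in breast and pancreatic tumours, had 55.7, 57.0 and 56.5 CPM in libraries labelled knockdown, against 24.9, 23.1 and 24.1 CPM in scramble libraries. The groups did not overlap, and the log2 fold change was 1.23 ± 0.05 (SE), or 2.34-fold (edgeR adjusted p = 1.28e-22). GPC4 encodes a glypican known from developmental growth factor signalling. It had 0, 1 and 0 reads in libraries labelled knockdown, against 296, 262 and 279 reads, or 12.5 ± 0.0474 CPM (SD, n = 3), in scramble libraries. The scramble level was steady and the transcript was close to absent in the other group. From 1 against 837 reads, the scramble level was 945 times that in libraries labelled knockdown (95% counting interval 169 to 37379, edgeR adjusted p = 4.05e-27). The read came from replicate 2, and without that library GPC4 was at least 207-fold lower (837 reads in scramble against a floor of 3 reads over the group).

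GPC6, of the same glypican subfamily as GPC1 and GPC4, had 7.09, 7.52 and 7.12 CPM in libraries labelled knockdown, against 14.2, 15.5 and 14.5 CPM in scramble libraries. Every library labelled knockdown was below every scramble library. The log2 fold change was -1.02 ± 0.09 (SE), so that the scramble level was 2.03 times as high (edgeR adjusted p = 3.95e-13). That change was -0.97 with library totals in place of TMM and -0.99 without scramble replicate 2. GPC6 therefore met the size of 1 used above only narrowly. The other glypican genes were close to unread. GPC3 had no read anywhere. The floor of 3 reads over a group limits it to 0.0397 CPM in libraries labelled knockdown and 0.0448 CPM in scramble libraries. GPC5 was lower in libraries labelled knockdown, with 0.0939 ± 0.0836 CPM there and 0.902 ± 0.285 CPM in scramble libraries (SD, n = 3 each). GPC2 was below the low-count filter.

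Of the matrix proteoglycans, HSPG2 was the only one read at more than a few CPM. It encodes perlecan, a large heparan sulfate proteoglycan that links laminin and collagen networks in basement membranes and holds growth factors. Its level was 224, 215 and 236 CPM in libraries labelled knockdown, against 64.4, 66.5 and 65.2 CPM in scramble libraries. The groups lay far apart, and the log2 fold change was 1.78 ± 0.04 (SE), or 3.44-fold (edgeR adjusted p = 1.10e-32). In GENCODE's annotation 11.7% of the exon bases of HSPG2 lie opposite exons of LDLRAD2, and since no source used here says whether strand was counted, reads of such a pair cannot be told apart. LDLRAD2 itself had 1 or 2 reads per library. The like share was 7.36% for GPC6 and 3.05% for VCAN, opposite genes that have no row in the count files.

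VCAN encodes versican, a hyaluronan-binding proteoglycan of the tumour stroma. It had 10, 13 and 16 reads in libraries labelled knockdown and 53, 23 and 39 reads in scramble libraries. The scramble libraries varied widely, yet all 3 were above every library of the other group. The log2 fold change was -1.72 ± 0.30 (SE; edgeR adjusted p = 2.03e-06), at 0.516 ± 0.124 CPM in libraries labelled knockdown and 1.69 ± 0.569 CPM in scramble libraries (SD, n = 3 each). BGN encodes biglycan, a small leucine-rich proteoglycan that binds collagen. It had 0, 0 and 1 read in libraries labelled knockdown and 0 reads in each scramble library, which is under the limit of 3 reads in both groups and allows no fold change.

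**Figure D2:**
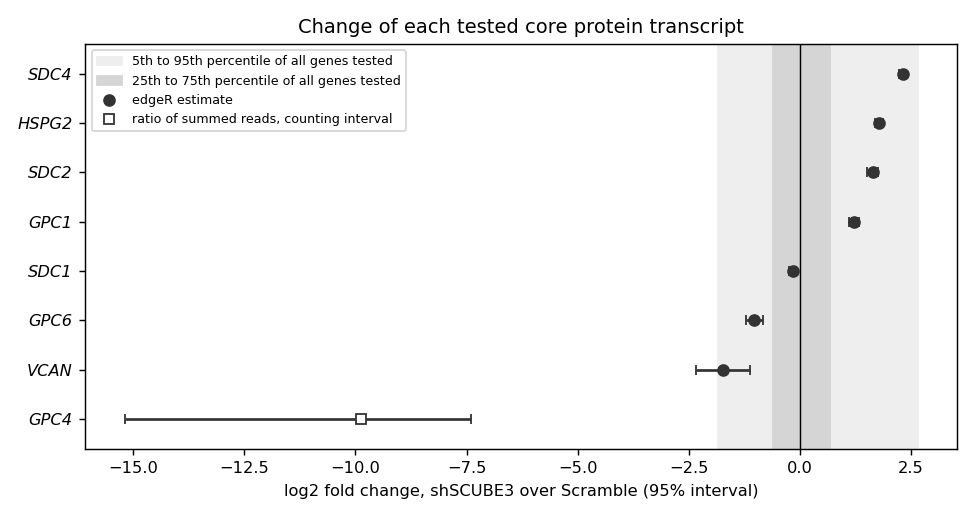
Points are the log2 fold changes (libraries labelled knockdown over scramble) of the 8 tested core protein genes with 95% intervals; grey bands hold the middle of all 13606 genes tested. GPC4, drawn as a square from its summed reads with a counting interval, lies far below the bands, SDC4 at 2.31 lies near the upper edge of the wide band, and SDC1 lies inside the narrow one.

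Levels of different genes can be set side by side only per transcript length. CPM were therefore divided by the length in kilobases of the principal GENCODE transcript of each gene, from 2402 bases for BGN to 14327 bases for HSPG2. In libraries labelled knockdown, SDC4 had the highest level per kilobase at 157 ± 2.24 CPM (SD, n = 3), followed by SDC1 at 42.9 ± 2.03 CPM. HSPG2 (15.7 ± 0.734), GPC1 (15.2 ± 0.177) and SDC2 (14.6 ± 0.387 CPM per kilobase) came next, and the libraries of HSPG2 overlapped those of GPC1. The order of these 3 depended on the length used, with GPC1 lowest at 8.66 CPM per kilobase when divided by the union of its exons. GPC6 stood at 1.12 ± 0.0373, VCAN at 0.0409 ± 0.00982 and GPC4, with its 1 read, at 0.00259 CPM per kilobase. In scramble libraries SDC1 led at 47.8 ± 2.24 CPM per kilobase, ahead of SDC4 at 31.7 ± 0.736. GPC1 followed at 6.47 ± 0.248 CPM per kilobase, and then SDC2 (4.69 ± 0.226) and HSPG2 (4.56 ± 0.0746), whose libraries overlapped. Divided by the union of exons, the scramble levels of GPC1 (3.69), SDC2 (3.89) and HSPG2 (3.61 CPM per kilobase) were close together, and GPC1 no longer led them. GPC4 (2.52 ± 0.00955) and GPC6 (2.28 ± 0.110 CPM per kilobase) did not overlap, and VCAN was at 0.134 ± 0.0451.

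Among the members, the make-up of both cell-surface families differed with the label. The syndecan shares leave out SDC3, which is not a member but had 139 CPM in libraries labelled knockdown and 98.6 CPM in scramble libraries. They are therefore not shares of all syndecan RNA. SDC4 held 73.2% ± 0.794 of the summed level per kilobase of the 3 member syndecans in libraries labelled knockdown and 37.7% ± 1.02 in scramble libraries (SD, n = 3 each). SDC1 held 20.0% ± 0.957 in libraries labelled knockdown and 56.8% ± 0.898 in scramble libraries, so SDC4 led in every library labelled knockdown and SDC1 in every scramble library. SDC2 held 6.80% ± 0.188 in libraries labelled knockdown and 5.58% ± 0.197 in scramble libraries. Among the member glypicans GPC1 held 93.1% ± 0.184 in libraries labelled knockdown and 57.4% ± 1.5 in scramble libraries. GPC4 held 0.0157% ± 0.0272 in libraries labelled knockdown and 22.4% ± 0.316 in scramble libraries. GPC6 held 6.87% ± 0.158 in libraries labelled knockdown and 20.2% ± 1.21 in scramble libraries. Summed over the 3 genes, the syndecan level per kilobase was 215 ± 1.43 CPM in libraries labelled knockdown and 84.1 ± 2.79 CPM in scramble libraries, a ratio of 2.55, or 2.36 without division by length and 2.63 with the union of exons. The glypican sum was 16.3 ± 0.211 CPM per kilobase in libraries labelled knockdown and 11.3 ± 0.138 in scramble libraries, a ratio of 1.45 that fell to 1.24 without division by length and to 1.15 with the union of exons. Shares of 3 genes are tied to one another, and no test was made of them.

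**Figure D3:**
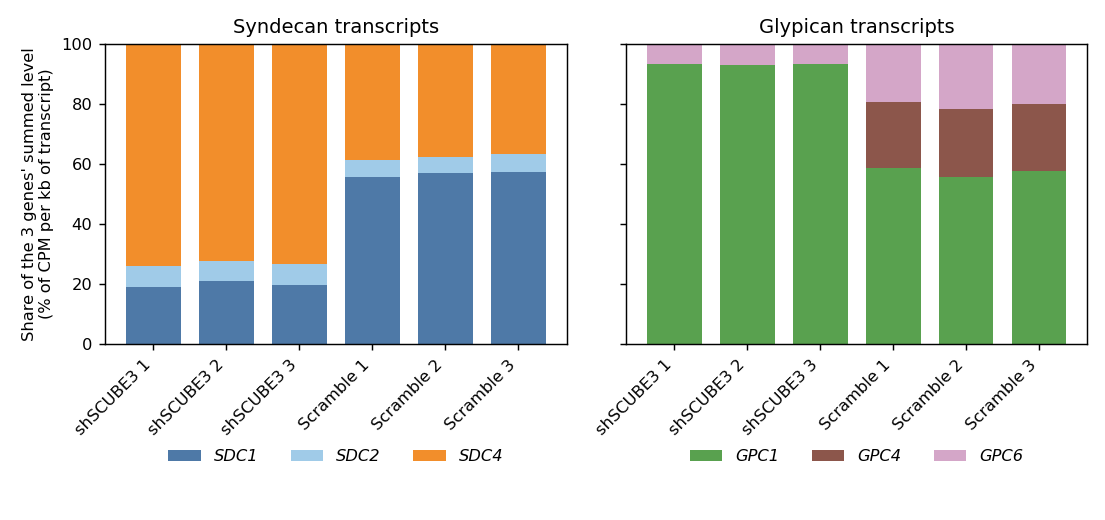
Bars are the 6 libraries, those labelled knockdown (shSCUBE3) on the left of each panel, and colours show the share of each gene in the summed CPM per kilobase of the 3 member syndecans (left panel) or glypicans (right panel). SDC4 takes about 73.2% of the syndecan bars on the left of its panel and SDC1 about 56.8% on the right, and the GPC4 segment is visible in scramble libraries alone.

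The promoters of 5 genes are shown, those called with a log2 change of at least 1, read at more than a few CPM in some group and held in RefSeq's promoter table: SDC4, HSPG2 and GPC1, which were higher in libraries labelled knockdown, and GPC4 and GPC6, which were lower. Each line gives the 250 bases before the RefSeq start on the gene's own strand, in GRCh38.p14, and the table held 8 of the 9 genes. Capitals mark the GC box GGGCGG, the motif of SP1-type factors, on either strand, and the TATA box TATAAA. The windows are chr20:45348425-45348674 (minus strand) for SDC4, chr1:21937311-21937560 (minus) for HSPG2, chr2:240435413-240435662 (plus) for GPC1, chrX:133415490-133415739 (minus) for GPC4 and chr13:93226557-93226806 (plus) for GPC6.
SDC4: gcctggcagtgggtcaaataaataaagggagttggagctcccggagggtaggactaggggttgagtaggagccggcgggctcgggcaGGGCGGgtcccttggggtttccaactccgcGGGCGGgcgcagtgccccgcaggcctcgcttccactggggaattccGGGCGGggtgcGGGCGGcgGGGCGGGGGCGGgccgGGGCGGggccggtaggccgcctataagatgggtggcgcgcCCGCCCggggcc
HSPG2: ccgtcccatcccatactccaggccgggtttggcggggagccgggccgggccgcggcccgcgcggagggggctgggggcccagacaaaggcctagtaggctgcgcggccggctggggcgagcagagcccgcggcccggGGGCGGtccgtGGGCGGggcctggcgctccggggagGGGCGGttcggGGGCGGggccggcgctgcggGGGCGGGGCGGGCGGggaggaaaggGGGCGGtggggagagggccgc
GPC1: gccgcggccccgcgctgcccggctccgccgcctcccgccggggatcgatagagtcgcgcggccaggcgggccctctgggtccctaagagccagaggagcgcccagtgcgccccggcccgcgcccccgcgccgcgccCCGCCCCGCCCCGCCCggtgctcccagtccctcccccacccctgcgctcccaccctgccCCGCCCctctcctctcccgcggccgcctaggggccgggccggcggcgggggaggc
GPC4: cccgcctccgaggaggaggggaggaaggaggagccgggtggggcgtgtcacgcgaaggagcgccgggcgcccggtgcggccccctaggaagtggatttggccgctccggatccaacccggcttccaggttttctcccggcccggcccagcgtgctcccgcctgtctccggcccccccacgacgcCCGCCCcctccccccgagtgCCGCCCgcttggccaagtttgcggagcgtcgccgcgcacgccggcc
GPC6: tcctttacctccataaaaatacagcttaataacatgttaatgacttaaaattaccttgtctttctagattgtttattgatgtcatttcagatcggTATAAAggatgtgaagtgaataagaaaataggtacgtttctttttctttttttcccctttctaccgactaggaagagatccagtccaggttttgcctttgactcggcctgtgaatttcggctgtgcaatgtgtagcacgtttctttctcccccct
Counting overlapping matches on both strands, GGGCGG was found 8 times for SDC4, 8 times for HSPG2, 4 times for GPC1, 2 times for GPC4 and 0 times for GPC6. The window of the unread BGN gene held 5, and that of VCAN 1. At least 1 match was present in 42.6% of the 35116 windows of the same length in the table. The GPC6 window was the only one of the members' windows with TATAAA, at 149 bases before the start, a motif found in 10.7% of all windows. GC content was 73.6% for SDC4, 82.8% for HSPG2, 84.0% for GPC1, 76.0% for GPC4 and 37.6% for GPC6, where the median of all windows was 58.0%. GPC4, with next to no reads in libraries labelled knockdown, and BGN, with next to no reads in either group, had GC-rich windows, as SDC4 and HSPG2 did. A link of GC content to these levels was not tested. A match is a description of these letters and no evidence of binding, and the starts used in these cells were not measured.

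Other genes of the proteoglycan pathway were described from 8 lists. The list of other core proteins held 34 genes, of which 17 were tested. Of these 10 were higher, 5 lower and 2 not called, and 88.2% were called where 85.9% of all genes tested were. COL18A1, the collagen that yields endostatin and carries heparan sulfate, rose to 214 ± 4.36 CPM in libraries labelled knockdown, against 22.6 ± 1.92 CPM in scramble libraries (SD, n = 3 each). Agrin, encoded by AGRN (log2 fold change 1.58 ± 0.03, here and below with its SE), and the co-receptor NRP1 (1.55 ± 0.03) were higher too. ESM1, a soluble dermatan sulfate proteoglycan, fell to 0.278 ± 0.122 CPM, against 48.5 ± 3.32 CPM in scramble libraries. The other 4 that fell were SRGN (-1.42 ± 0.04), SPOCK1 (-2.25 ± 0.15), GPC5 (-3.23 ± 0.52) and PTPRZ1 (-1.71 ± 0.43), while TGFBR3 and SPOCK3 were not called. The median log2 fold change of the tested genes was 0.86, where that of all genes tested was 0.01.

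Sugar chain genes came in 3 lists, with 91.7%, 92.9% and 100% called in the order below. Of all genes tested 85.9% were called, 43.4% as higher and 42.5% as lower. Of 12 tested genes for the linkage region and its precursors, 11 were higher, 0 lower and PXYLP1 was not called, with a median log2 fold change of 0.38. Against a 1.5-fold change 5 of these 12 were called higher, in a test that 45.9% of all genes tested passed. The 11 included the sulfate donor transporters SLC35B2 (1.30 ± 0.04) and SLC35B3 (1.74 ± 0.07) and the enzymes that attach the last sugars of the linker, B3GAT3 (1.34 ± 0.06) and B3GALT6 (0.78 ± 0.06). Of 14 tested heparan sulfate chain genes, 9 were higher, 4 lower and HS2ST1 was not called, with a median of 0.66. The N-sulfating enzyme gene NDST1 (1.31 ± 0.03) and the chain polymerase gene EXT1 (0.93 ± 0.03) were higher. The 6-O-sulfating enzyme genes went both ways: HS6ST1 was higher (1.23 ± 0.07), with 32.6 ± 1.03 CPM in libraries labelled knockdown and 13.9 ± 0.460 CPM in scramble libraries (SD, n = 3 each), and HS6ST2 and HS6ST3 were lower. HS6ST2 had 1 read in libraries labelled knockdown and 2079 in scramble libraries, where its level was 2348 times as high (95% counting interval 421 to 92779), and HS6ST3 (-2.56 ± 0.11) had 3.27 ± 0.692 CPM in libraries labelled knockdown and 19.2 ± 1.59 CPM in scramble libraries (SD, n = 3 each). EXTL2 (-0.35 ± 0.05) and GLCE (-0.14 ± 0.04) made up the 4. Of 15 tested chondroitin and dermatan sulfate genes, 8 were higher, 7 were lower, and the median was 0.21. The chondroitin sulfotransferase genes CHST15 (2.74 ± 0.05), CHST11 (1.55 ± 0.04) and CHST3 (1.03 ± 0.04) and the polymerizing factor gene CHPF2 (1.88 ± 0.04) were higher. The largest change of this list was that of CSGALNACT1 (5.81 ± 0.26), also higher. It had 8.68 ± 1.19 CPM in libraries labelled knockdown and 0.150 ± 0.104 CPM in scramble libraries (SD, n = 3 each). The 7 lower genes were the sulfotransferase gene UST (-1.95 ± 0.09), the chain synthase genes CHSY3 (-2.30 ± 0.11) and CHSY1 (-0.13 ± 0.05), CSGALNACT2 (-0.59 ± 0.04), CHPF (-0.19 ± 0.05), and the epimerase genes DSE (-0.26 ± 0.05) and DSEL (-0.37 ± 0.08). Against a 1.5-fold change 2 of these 7 were still called, and 2 of the 4 lower heparan sulfate genes.

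Genes for enzymes that cut or release core proteins were higher in 11 of 16 tested cases, lower in 3, and not called for ADAM17 and CTSL. The share called was 87.5%, near the 85.9% of all genes tested, and the median log2 fold change of the list was 1.66. ADAMTS15, a metalloprotease that cleaves versican, had 158 ± 2.36 CPM in libraries labelled knockdown and 6.76 ± 0.242 CPM in scramble libraries (SD, n = 3 each). The plasminogen activator genes PLAT (4.40 ± 0.04) and PLAU (2.45 ± 0.03) and the cathepsin gene CTSS (4.65 ± 0.08) had the other smallest adjusted p-values. ADAMTS1 (-1.09 ± 0.06), MMP16 (-1.93 ± 0.19) and MMP3 (-1.76 ± 0.43) were the 3 that fell. MMP14, which sheds SDC1, had a log2 fold change of 1.76 ± 0.03, and was named after its value was seen.

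Of 15 tested genes for proteins that act at the cytoplasmic tails of syndecans, 7 were higher, 5 lower and 3 not called (PDCD6IP, ARHGDIA and ACTN1), with a median log2 fold change of -0.01. The share called was 80%, where 85.9% of all genes tested were called. CASK (2.07 ± 0.05) and SDCBP (1.06 ± 0.03), which encodes syntenin, bind the tails through PDZ domains and were higher, as was SYNJ2 (0.71 ± 0.03), whereas TIAM1, an exchange factor for RAC1, was lower (-1.80 ± 0.06). Of 16 tested basement membrane genes, 12 were higher, 2 lower and 2 not called (COL4A6 and LAMA1), with a median of 0.62. Here 87.5% were called, near the share over all genes tested. Laminin genes LAMB1 (1.19 ± 0.04) and LAMB3 (0.94 ± 0.03) were higher, and LAMA4 (-3.81 ± 0.11) and LAMA2 (-1.18 ± 0.27) were the 2 that fell. The list of heparan sulfate ligands also holds ROBO1, a receptor of SLIT ligands, which was lower (-0.94 ± 0.06). Of its 26 tested genes, 16 were higher, 9 lower, ROBO1 among them, and APOE was not called, with a median of 0.57. In this list 96.2% were called, against 85.9% of all genes tested. BMP4 (3.22 ± 0.04), IL8 (5.13 ± 0.05), CXCL1 (4.28 ± 0.06) and VEGFA (2.27 ± 0.04) had the smallest adjusted p-values. FGF2, a much studied heparan sulfate ligand, had 1 read in libraries labelled knockdown and 0 in scramble libraries.

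**Figure D4:**
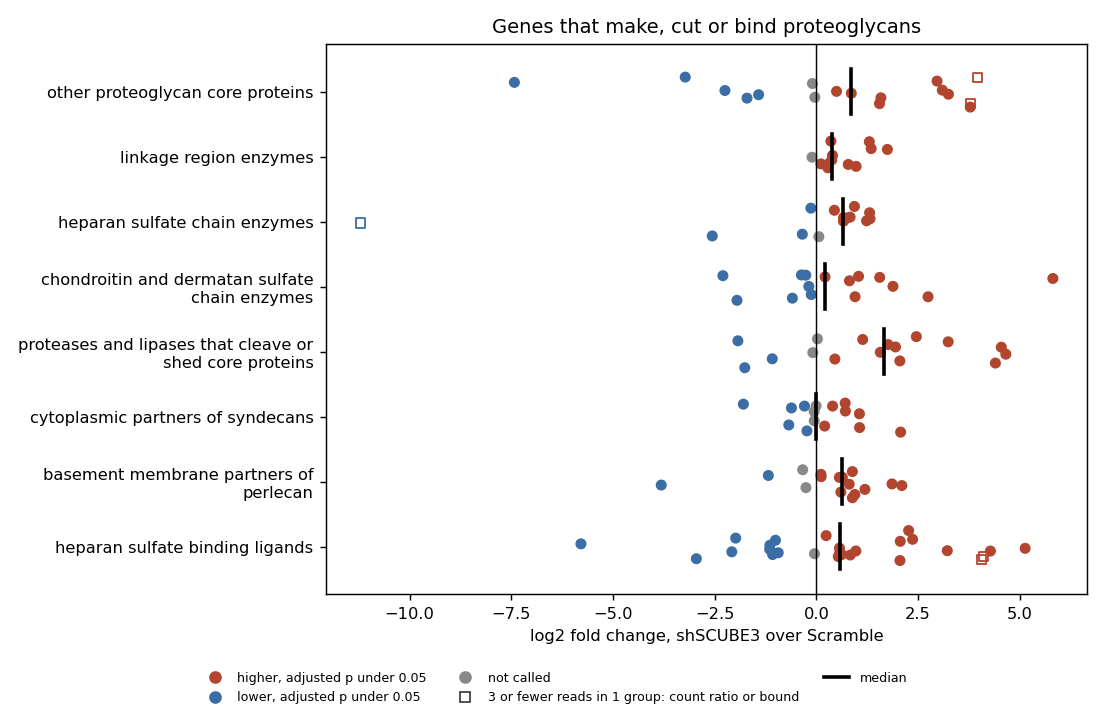
Each point is a tested gene of 8 lists, placed by its log2 fold change (libraries labelled knockdown over scramble). Red marks higher and blue lower at an adjusted p of 0.05, and grey marks genes not called. Open squares are genes with 3 or fewer reads in a group. They are placed by the ratio of summed reads, or by a bound from the floor of 3 reads where a group had 0. Black bars are list medians. All called linkage region genes lie above 0, and the cytoplasmic partners are centred on a median of -0.01.

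Among these lists and the other members, the 2 genes whose profiles over the 6 libraries lay closest to that of a member were found by the distance between log2 CPM values centred on each gene's mean. AGRN and NRP1 lay closest to SDC2, VEGFA and PLAU to SDC4, LAMB1 and SLC35B2 to GPC1, and SLC35B3 and MMP14 to HSPG2. ESM1 and HS6ST2 lay closest to GPC4, PTN and ADAMTS1 to GPC6, SRGN and UST to VCAN, and CHPF and ACTN4 to SDC1. The distances ran from 0.0559 for LAMB1 and GPC1 to 1.60 for HS6ST2 and GPC4, over 138 genes searched per member. With 2 groups and small spread within them, this distance mostly measures how alike the fold changes are.

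Markers of the cell line and of other cells moved with the label as well, and their part in the results above was not tested. Since 85.9% of all genes tested were called, 43.4% as higher and 42.5% as lower, a call is the usual outcome for a marker too. All 7 markers reported as high in MDA-MB-231 were read, with a summed level of 6811 to 6945 CPM in libraries labelled knockdown and 9358 to 9783 CPM in scramble libraries, and 3 were higher and 4 lower. The 8 genes reported as low there summed to 128 to 133 CPM in libraries labelled knockdown and 107 to 113 CPM in scramble libraries, with 3 higher, 3 lower and EPCAM not called among the 7 tested. Of these genes the oestrogen receptor gene ESR1 had 0 reads in libraries labelled knockdown and 8 in scramble libraries, while the luminal factor gene FOXA1 had 0.0532 CPM in libraries labelled knockdown and 21.8 CPM in scramble libraries, and PGR and ERBB3 were the other 2 that were lower. The E-cadherin gene CDH1 was higher, with 152 reads in libraries labelled knockdown and 3 in scramble libraries, a ratio of 44.9 (95% counting interval 15.1 to 220.0), as were GATA3 (1.39 ± 0.09) and ERBB2 (0.79 ± 0.05). Of 10 fibroblast markers, 4 passed the filter and all 4 were higher, with summed levels of 26.5 to 29.9 CPM in libraries labelled knockdown and 5.22 to 6.39 CPM in scramble libraries. DCN and POSTN, also on that list, had 0 reads in every library. LUM and DCN stand in this list and in that of other core proteins, and LUM had 47 reads in libraries labelled knockdown and 0 in scramble libraries. Leukocyte markers summed to 11.0 to 12.1 CPM in libraries labelled knockdown. In scramble libraries they summed to 645 to 682 CPM, and there nearly all of it came from LCP1. Of the 4 tested, 2 were higher, 1 was lower and CORO1A was not called, and MS4A1 and SPI1 were at 0. The log2 fold changes of the tested leukocyte markers ran from -7.94 to 4.67. Endothelial markers summed to 149 to 156 CPM in libraries labelled knockdown and 101 to 104 CPM in scramble libraries, with 3 of 3 tested higher, most of it from ESAM and CLDN5 at 0. Myoepithelial markers summed to 12.3 to 13.7 CPM in libraries labelled knockdown and 3.60 to 5.25 CPM in scramble libraries, with 2 of 3 tested higher, 1 lower and KRT5 and KRT14 at 0. KRT17, on the same list, had 30 reads in libraries labelled knockdown and 1 in scramble libraries. Luminal epithelial markers summed to 890 to 909 CPM in libraries labelled knockdown and 727 to 756 CPM in scramble libraries, with 4 of 8 tested higher, 3 lower and EPCAM not called. Unlike FOXA1, the luminal marker ELF3 was read more under the knockdown label, with 395 reads there and 2 in scramble libraries.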

How the data were processed

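The authors deposited raw read counts per gene for 6 libraries. Per the labels' protocols, these came from a stranded mRNA kit and single reads; per the submitters' processing notes, TopHat2 2.0.8b, HTSeq and genome build hg19 were used. The lines that name no gene (41.0% to 49.7% of listed reads) were left out of library sizes. From the counts, edgeR 4.0.16 (R 4.3.3) kept 13606 genes by filterByExpr, scaled by TMM and ran the quasi-likelihood test with Benjamini-Hochberg adjustment over all of them; the procedure was tested on simulated data. SEs were derived from each gene's F statistic. CPM are counts per 1e6 reads in genes after TMM scaling. Counting intervals are 95% and cover counting error only; floors are 3 reads over a group. Alternatives included DESeq2 1.42.0, limma-voom 3.58.1, other scalings, filters, thresholds and left-out libraries. Lengths came from GENCODE v29, promoters from RefSeq. Members and lists were chosen with earlier results of these data known. Named list genes are the 4 with the smallest adjusted p in each list, of which 1 is not reported here; the names of lower or uncalled genes, MMP14, FGF2, HS6ST1, SDC3, GPC2, GPC3, GPC5, FOXA1, and marker genes named singly were chosen after their values were seen.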

Additional observations from a re-analysis of the deposited data

How the results depend on the processing

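Directions and calls held in 127 of 128 comparisons, each of the 8 tested members under 16 alternative settings. The setting with a threshold of 0.01 reused the main fit. Against a 1.5-fold change SDC1 (-0.15) was no longer called, and 3307 genes were called higher and 2944 lower. SCUBE3 turned to -0.050 without scramble replicate 3. Leaving out each library gave 5806 to 5878 genes higher and 5644 to 5752 lower; log2 fold changes ran from -0.20 to -0.13 for SDC1, 1.60 to 1.67 for SDC2, 2.29 to 2.33 for SDC4, 1.20 to 1.25 for GPC1, -1.06 to -0.99 for GPC6, -1.95 to -1.47 for VCAN, 1.75 to 1.82 for HSPG2 and -0.050 to 0.080 for SCUBE3. The fitted value of GPC4, which depends on the prior count, ran from -11.19 to -8.96. Of 256 list counts, 7 moved by over 1.5 times, 4 of them against a 1.5-fold change. Shares within families depended on length. From CPM without length and then with the union of exons, a choice added after seeing the data, libraries labelled knockdown gave SDC1 23.2% and 18.8%, SDC2 9.04% and 5.80%, SDC4 67.7% and 75.4%, GPC1 88.6% and 88.5%, and GPC6 11.4% and 11.5%. Scramble libraries gave SDC1 61.0% and 55.1%, SDC2 6.85% and 4.90%, SDC4 32.2% and 40.0%, GPC1 46.9% and 43.4%, GPC4 24.4% and 29.7%, and GPC6 28.8% and 26.9%. With the union of exons, GPC1 stood at 8.66 CPM per kilobase in libraries labelled knockdown, below SDC2 at 12.1 and HSPG2 at 12.4; in scramble libraries GPC1 was at 3.69, SDC2 at 3.89 and HSPG2 at 3.61. Low counts limit VCAN and BGN.

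Deviations of same-numbered libraries from their group means correlated across genes with r of 0.129, 0.127 and -0.0293. Libraries 1 and 2 labelled knockdown each correlated best with the scramble library of the same number. Library 3 labelled knockdown correlated best with scramble library 1 (r of 0.0516). These values do not settle whether the numbers mark pairs, and the numbers were not taken as pairs. With replicate number as a block, 11706 genes were called, SDC1 was at -0.16 and SCUBE3 at 0.02.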
